A study of Arabidopsis thaliana with 6 samples.

Results

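Of 9213 differentially methylated regions between the rbp-ko-1 mutant and wild-type Col-0, 246 were annotated to a 5S ribosomal RNA gene or its promoter. They were chosen by the gene name or description in the authors' table, counting each position and sequence context 1 time. Of these, 239 lay on the nuclear chromosomes, at 420 annotated 5S genes, and 7 at RRN5, the 5S gene of the mitochondrial genome. The annotation names the nuclear copies only as 5S rRNA; none of the 420 was matched in the RefSeq gene table, and their sequences are not used here.

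The study compared DNA methylation in the rbp-ko-1 mutant of Arabidopsis thaliana with that in Col-0, and its title concerns the RNA-binding protein RBP45D, flowering time at high temperature and RNA-directed DNA methylation. Col-0 is the wild-type accession, and rbp-ko-1, also labelled rbp-ko1 and KO27, is the single mutant line compared. Plants of both genotypes grew on soil for 26 days, each of 16 h light followed by 8 h dark, and DNA from 3 libraries of each was sequenced after bisulfite treatment, which leaves methylated cytosine as cytosine and converts the rest. Cytosines are read in 3 contexts, CG, CHG and CHH, with H for any base except G. Each region has 1 mean level per genotype, so no difference below could be set against the spread between plants, and no test was run. The table lists only regions that the authors called different and that touch an annotated gene. A 5S copy without an entry is therefore not shown to be equal in both genotypes.

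The 5S rRNA is the small RNA of the large ribosomal subunit. RNA polymerase III transcribes it with the help of TFIIIA, a zinc-finger protein that binds inside the gene. In plants its genes stand in tandem repeats, each with a short transcribed part and a spacer, and most copies are packed in methylated chromatin. In Arabidopsis the arrays lie near the centromeres of chromosomes 3, 4 and 5, and small RNAs made from them feed RNA-directed methylation back onto the arrays. CHH methylation, which is not symmetric between strands, has to be laid down again after each replication. The copies of an array are nearly identical, so reads can be shared between them, and the level given at 1 copy may partly reflect others.

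CHH regions made up nearly all of the nuclear set, and nearly all of them were lower in rbp-ko-1. Of the 239 nuclear regions 226 were CHH (94.6%), 7 were CG (2.93%) and 6 were CHG (2.51%). Among the other nuclear regions within 3 Mb of a centromere, CHH made up 79.2%, CG 16.2% and CHG 4.61%. In CHH, 225 nuclear 5S regions were lower and 1 was higher, where 97.4% of all CHH regions in the table were lower, so the direction was that of the table as a whole. Of the 420 nuclear genes 161 had a region in the gene itself, and the others had one in the promoter. The median level was 11.5% in Col-0 against 4.26% in the mutant, a median difference of -6.78 points. The differences ran from -23.0 to 5.52 points, with quartiles of -8.00 and -5.64. At the median region rbp-ko-1 held 38.8% of the Col-0 level, with quartiles of 28.5 and 46.2%.

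Most 5S regions lay above the median of the other CHH regions near centromeres in both genotypes. Those 3077 regions had medians of 7.76% in Col-0 against 2.67% in the mutant, and of the 5S regions 201 stood above the first value and 172 above the second. The level kept in rbp-ko-1 was 34.0% of Col-0 at the median of the other regions, a lower value than at the 5S regions, but the ranges overlapped widely. The order of the medians held on each chromosome taken alone. Of all 5S regions, 142 of 226 kept more than the median of the others. Set against the same chromosome, the counts were 108 of 176 on chromosome 3 and 23 of 41 on chromosome 5. They were 3 of 5 on chromosome 4 and 4 of 4 on chromosome 1. On chromosome 3 the medians kept were 38.8% at 5S and 35.03% at other regions, on chromosome 5 they were 37.6% and 34.4%, on chromosome 4 36.3% and 33.9%, and on chromosome 1 56.2% and 34.5%. The median length was 208 bp at 5S and 266 bp elsewhere. Of the 5S regions 48.7% reached an annotated transcription start, and of the others 11.05%; 5S genes are short and close together. Levels in Col-0 and rbp-ko-1 went together less closely over the 226 5S regions (Spearman's rho 0.620) than over the 3077 others (0.911). The 2 values are not directly comparable, as Col-0 levels ran from 3.99 to 27.2% at 5S and from 0.260 to 53.2% elsewhere. All these regions share the same libraries, and the values are a description only.

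**Figure D1:**
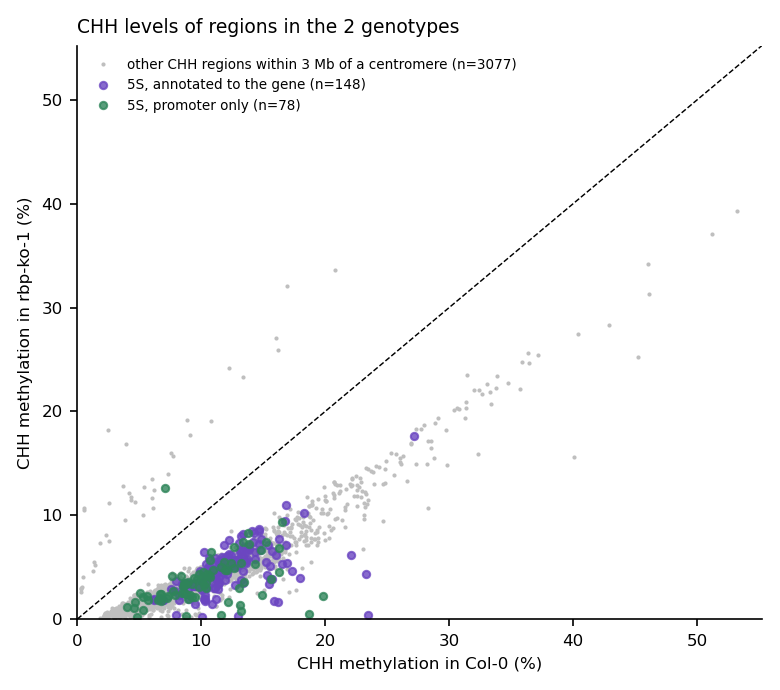
CHH methylation of each region in Col-0 (x axis, percent) and rbp-ko-1 (y axis, percent), with 148 5S regions annotated to the gene, 78 annotated to the promoter only and 3077 other regions within 3 Mb of a centromere; the dashed line marks equal levels. All 5S regions but 1 lie under the line, most of them inside the cloud of other regions, and a few lie on the floor of the plot with Col-0 levels up to 23.5%.

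Other genes transcribed by RNA polymerase III or coding for ribosomal RNA had lower median CHH levels. At 62 regions of nuclear transfer RNA genes, also products of polymerase III, the median CHH level was 7.61% in Col-0 against 2.01% in the mutant, and 61 were lower. Their levels overlapped those of 5S regions widely, with Col-0 quartiles of 4.56 and 12.3% against 9.53 and 13.4% at nuclear 5S regions. Means weighted by cytosines lay closer, at 10.3% and 4.02% for transfer RNA genes and 11.2% and 4.49% for nuclear 5S regions. At the 45S rRNA genes, which RNA polymerase I transcribes for the other cytosolic ribosomal RNAs, 6 CHH regions had medians of 5.26% and 1.65%. Those genes had more CG and CHG regions than CHH regions, 9 and 7, with medians of 75.5% in Col-0 against 57.0% in the mutant in CG and 35.2% and 21.9% in CHG. All 22 of their regions were lower.

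The regions fell into 12 stretches, taken as runs with gaps of at most 30 kb, and chromosome 3 held most of the regions. Positions are those of build TAIR10. It carried 176 of the CHH regions, which is 13.7% of all CHH regions on that chromosome, and 175 of them lay within 3 Mb of its centromere, 22.1% of the CHH regions there. Chromosome 5 carried 41 (3.63% of its CHH regions), chromosome 4 carried 5 (0.602%), chromosome 1 carried 4 (0.322%) and chromosome 2 none. The read coverage of the copies and their number in the genome were not analysed here. The median difference was -8.28 points on chromosome 1, -6.88 on chromosome 3, -5.98 on chromosome 5 and -5.43 on chromosome 4, or -5.04 there without its region of sparse cytosines. The values of chromosomes 1 and 4, which rest on 4 and 5 regions, lay outside the quartiles of the whole nuclear set.

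On chromosome 3 the largest stretch, from 13671988 to 13870743, held 126 CHH regions at 258 annotated 5S genes, and every listed region of any context in it was a 5S region. Only regions at annotated genes are listed and 5S genes are dense here, so this partly follows from the annotation. The median CHH level of the stretch went from 11.1% in Col-0 to 3.89% in the mutant, with 36.8% kept. The largest CHH difference of the chromosome lay here, at 13765815 to 13765974, where 5 5S genes are annotated, and went from 23.3% to 4.35%. ENSRNA049494049, the nuclear 5S gene with the most regions, had 7, of which 5 were CHH. A separate stretch before it, from 13589817 to 13600035, began with the longest chromosome 3 region, 2172 bp with 722 CHH cytosines in promoters only, at 5.33% and 2.12%. In the remaining 11 regions Col-0 levels ran from 5.65 to 19.8% and rbp-ko-1 levels from 2.04 to 5.74%. The largest difference of the stretch was at 13599445 to 13599607, from 19.8% to 2.24%.

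The stretch from 14171939 to 14226732 kept more of its methylation than the largest stretch. Its 37 CHH regions had medians of 12.4% in Col-0 against 5.41% in the mutant, with 44.0% kept, against 36.8% in the largest stretch, and the ranges overlapped. This stretch is broken near its middle by 45S rRNA genes and their neighbours, where 18 regions without a 5S annotation are listed. The smallest chromosome 3 difference lay beside that break, at 14193198 to 14193305, with 5.05% and 2.54%. A single region at 18851103 to 18851247, 4.85 Mb from the centromere and also annotated to the gene AT3G50720, went from 6.498% to 1.82%.

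**Figure D2:**
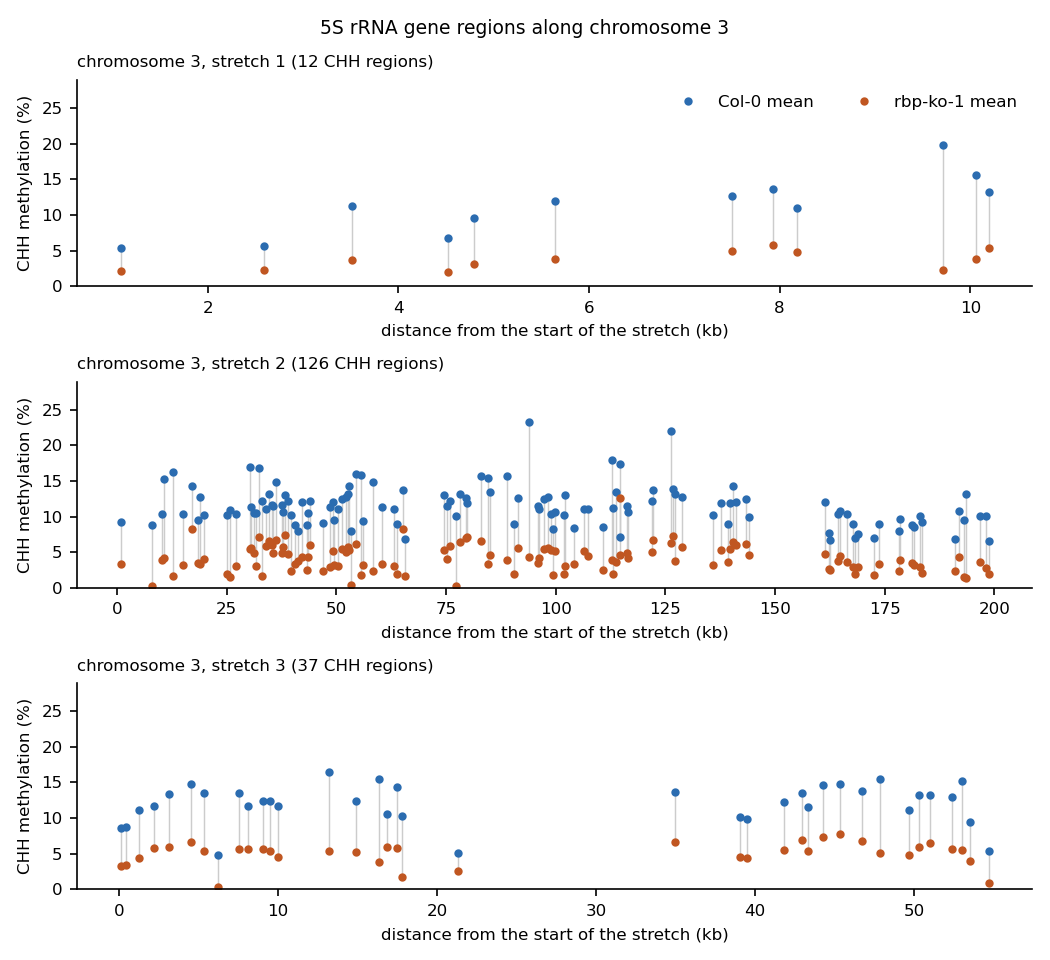
CHH methylation in percent (y axis) of each 5S region against its distance in kb from the start of its stretch (x axis), for the 3 chromosome 3 stretches with more than 1 region; blue points are the Col-0 mean, orange points the rbp-ko-1 mean, and grey lines join them. Orange points lie below blue points at all regions but 1, and the gap in the lowest panel is where the 45S rRNA genes stand.

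Chromosome 5 held 6 stretches that differed in level. The stretch from 11182314 to 11188784 had medians of 13.2% in Col-0 against 7.02% in the mutant, the stretch from 11307058 to 11315793 had 5.96% and 1.87%, and the single-gene stretch from 11223920 to 11226101 had 7.64% and 2.55%. Their Col-0 ranges were 9.53 to 14.7%, 3.99 to 8.20% and 7.26 to 16.9%, so the first 2 did not overlap. The smallest chromosome 5 difference, at 11307668 to 11307886, went from 3.99% to 1.12%. The 3 regions of 1 gene from 11973360 to 11975672 kept a median of 50.03%. The stretch from 12022722 to 12025499 holds the longest chromosome 5 region, 1260 bp over 2 genes, which went from 15.3% to 7.11%.

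In the last chromosome 5 stretch, from 12809425 to 12869169, some regions had almost no methylation left in rbp-ko-1. They lay among regions whose median share kept was above the upper quartile of all nuclear 5S CHH regions. The 14 CHH regions of the stretch had medians of 14.4% and 5.61%. The largest CHH difference at any 5S gene, at 12854241 to 12854377, went from 23.5% in Col-0 to 0.427% in the mutant at 41 cytosines, with the start, exon and end of 5S genes among its annotations. At the neighbouring 12851363 to 12851763 the levels were 14.7% and 8.45%, and at 12856663 to 12856901 they were 11.9% and 4.77%. The other regions with almost nothing left were 12810368 to 12810561 (13.2% and 0.731%), 12812025 to 12812084 (11.6% and 0.355%), 12827083 to 12827154 (18.7% and 0.520%) and 12827218 to 12827275 (12.96% and 0.279%). Between the first pair lay 12810711 to 12811011, at 16.7% and 9.49%. The 9 remaining regions of the stretch kept between 28.1 and 63.1% of their Col-0 level, with a median of 52.2% and quartiles of 42.2 and 56.7%. Over all arrays the 217 CHH regions that kept at least 10% had a median of 39.4%, with an upper quartile of 46.8%.

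Over all arrays, 9 of the 226 CHH regions (3.98%) had an rbp-ko-1 level under 10% of the Col-0 level, with 5 in that stretch and 4 on chromosome 3. The share was 3.02% among all listed CHH regions and 1.62% of the other CHH regions within 3 Mb of a centromere. The 9 regions had 6 to 48 cytosines and kept 1.82 to 5.54%, and the next ones above the limit kept 10.1, 10.5 and 10.96%. Their median length was 137 bp, against 214 bp for the other 5S regions.

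**Figure D3:**
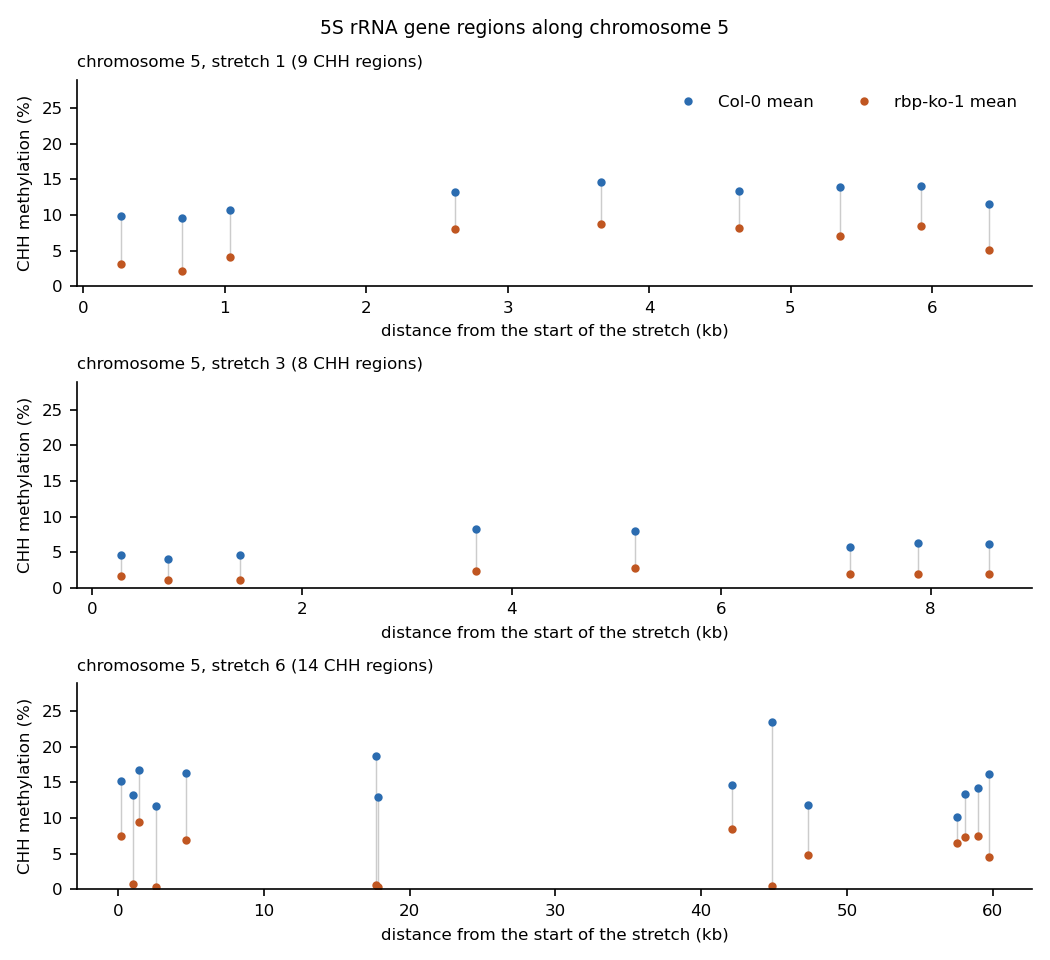
CHH methylation in percent (y axis) of each 5S region against its distance in kb from the start of its stretch (x axis), for the 3 chromosome 5 stretches with at least 8 regions; blue points are the Col-0 mean, orange points the rbp-ko-1 mean, and grey lines join them. Col-0 levels in the middle panel reach 8.20% at most, and 5 orange points in the lowest panel lie at or under 0.731%.

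Chromosomes 1 and 4 held 1 short stretch each. On chromosome 1 (16431081 to 16433834) the median levels, 17.4% and 9.77%, were the highest of the 12 stretches. The first region, which had the largest difference, went from 27.2% to 17.6%. The longest, 16432080 to 16432360, went from 16.3% to 7.75%, the third from 18.3% to 10.2%, and the last, 16433728 to 16433834 with the smallest difference, from 16.5% to 9.31%. All 4 kept between 47.7 and 64.9%, and the first 2 were also annotated to AT1G43620. On chromosome 4 (3052960 to 3061134), 5 CHH regions kept between 26.1 and 62.1%. The longest of all 5S regions and the largest CHH difference of the chromosome, 3058299 to 3061007, went from 13.4% to 3.503%, but its 2709 bp held only 8 measured cytosines, 0.295 per 100 bp, where the median nuclear 5S CHH region had 28.7. The smallest difference, at 3061070 to 3061134, went from 10.8% to 6.499%.

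**Figure D4:**
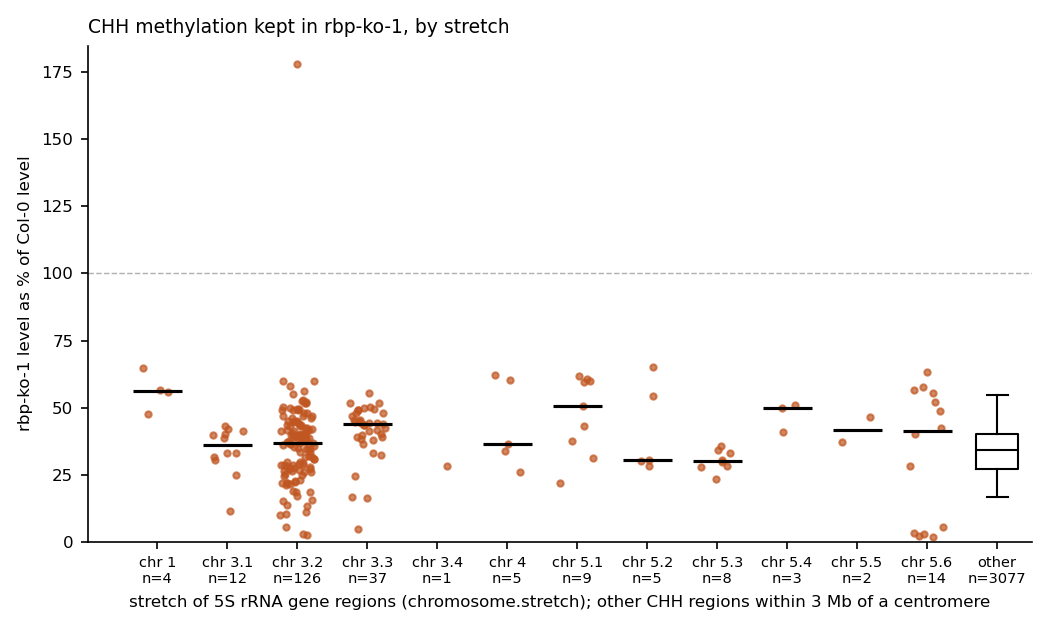
The rbp-ko-1 CHH level as a percentage of the Col-0 level (y axis) for each 5S region (points) by stretch (x axis, chromosome and order along it, with the number of regions), with a black line at the median of each stretch that has more than 1 region; the box at the right shows quartiles and median of 3077 other CHH regions within 3 Mb of a centromere, with whiskers at the 5th and 95th percentiles. Stretch medians run from 30.1 to 56.2%, and the point at 178% is the only CHH region that was higher in rbp-ko-1.

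Regions that touched the transcribed 5S gene had higher median levels in both genotypes than regions in promoters only, but the share kept did not have the same order in every stretch. The 148 CHH regions with an annotated exon had medians of 12.1% in Col-0 against 4.90% in the mutant, and the 78 in promoters only had 9.97% and 3.33%. The shares kept were 39.95 and 36.5%. In the chromosome 5 stretch from 11182314 to 11188784, 5 gene regions kept 50.6 to 61.6% and 4 promoter regions 22.0 to 43.2%, with no overlap. All 4 promoter regions lay at the ends of that stretch, outside the gene regions, so feature and place cannot be told apart there. In the single-gene stretch, the exon (11226017 to 11226101) went from 16.9% to 11.0%, while 4 promoter regions had 7.26 to 8.41% and 2.05 to 4.14%. In the stretch from 11307058 to 11315793, gene and promoter regions kept medians of 30.1 and 30.5%. In the first chromosome 3 stretch the order was the other way. There 4 gene regions kept a median of 33.2% and 8 promoter regions 39.3%, with Col-0 medians of 11.6 and 11.8%. The shares kept overlapped, at 31.6 to 42.0% in gene regions and 11.3 to 43.2% in promoter regions. The order was also the other way on chromosome 4, where 3 gene regions kept a median of 33.9% and 2 promoter regions 48.2%. These shares overlapped too, at 26.1 to 62.1% and 36.3 to 60.1%. The lowest of them was that of the region with only 8 measured cytosines, so this order is not firm. In the 2 large chromosome 3 stretches the medians kept were 37.6 and 35.9%, and 44.1 and 41.8%. In the last chromosome 5 stretch 6 gene regions kept a median of 54.5% and 8 promoter regions 34.1%. Their ranges were 1.82 to 63.1% and 2.78 to 55.3%. As copies are close together, a promoter of 1 copy often reaches into its neighbours: a CHH region was annotated to a median of 4 5S genes and to at most 8. The median length was 229.5 bp for gene regions and 169.5 bp for promoter regions.

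Only a few 5S regions were called in CG and CHG, and their direction was mixed in CG, as it was in the whole table. In CG, 5 nuclear regions were lower (71.4%) and 2 higher, near the 74.7% lower in the whole table. The largest CG difference lay in promoters on chromosome 3, at 13850440 to 13850503, with 83.9% in Col-0 against 35.8% in the mutant at 8 cytosines, and it overlapped a lower CHH region. At 13702110 to 13702173 the CG level went from 81.8% to 45.7%, and the overlapping CHG region had the largest CHG difference of the set, from 42.2% to 7.54%. Each of these last 2 rested on 7 cytosines. On chromosome 4, CG methylation went from 79.8% to 55.1% (3055626 to 3055805), over a CHH region with 10.7% and 3.62%. On chromosome 5 the only CG region, at 12866959 to 12867019, went from 89.2% to 84.8%, and the only CHG region, at 12861736 to 12861803, from 40.3% to 14.3%. In CHG all 6 nuclear regions were lower, beside 89.1% in the whole table.

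The 3 regions that were higher in rbp-ko-1 all lay in the largest chromosome 3 stretch. The CG level went from 80.7% to 86.1% at 13849643 to 13849721, the smallest CG difference of that chromosome, and from 79.7% to 90.8% over 5 cytosines at 13865779 to 13865829. The CHH level went from 7.08% to 12.6% over 38 cytosines at 13786531 to 13786641, in the promoters of 4 genes. The nearest CHH regions on both sides were lower, with 13.5% and 3.54% before it and 17.3% and 4.63% after it.

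A place on chromosome 3 stood apart from the other arrays in its contexts. The longest CG region, 14191728 to 14192734, in promoters only and beside the 45S rRNA genes, had 36.2% in Col-0 against 17.1% in the mutant over 242 cytosines, while every other nuclear 5S CG region had at least 79.7% in Col-0. It overlapped 2 CHG regions, those of the chromosome with the greatest length and the smallest differences, at 19.9% and 8.07% (14191730 to 14192203) and 12.1% and 4.86% (14192256 to 14192688). No CHH region was listed there. Of the regions with no 5S annotation beyond it, the nearest CG region (14193706 to 14194155) had 82.0% and 70.4%, and the nearest CHG region (14193857 to 14194135) 33.1% and 24.4%. The next ones had 32.7% and 17.0% in CG (14194393 to 14195511) and 14.1% and 6.81% in CHG (14194692 to 14195475).

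The mitochondrial gene RRN5, whose product belongs to the ribosome inside mitochondria, had 3 CG, 3 CHG and 1 CHH region, all lower. The largest difference, in CG at 361334 to 362965, was from 27.1% to 10.4%, and the region over the gene itself (361006 to 361247) had the smallest CG difference, from 12.01% to 6.52%. In CHG the levels ran from 15.9% and 5.12% (361471 to 362163) to 7.48% and 3.94% (362873 to 363144). In CHH they were 3.5996% and 0.495%. All 7 regions were also annotated to neighbouring mitochondrial genes, so none belongs to RRN5 alone. How reads that match both the mitochondrial genome and a nuclear copy of it were placed is not given. Whether these levels come from mitochondrial DNA was not tested.

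**Figure D5:**
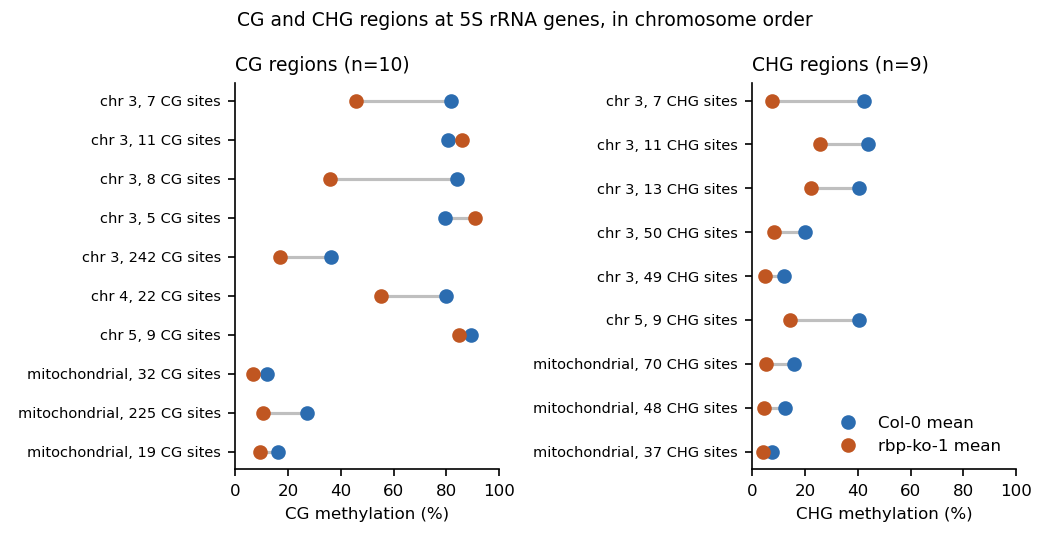
CG (left) and CHG (right) methylation in percent (x axes) of each 5S region, 1 per line in chromosome order with its number of cytosines, with blue points for the Col-0 mean, orange points for the rbp-ko-1 mean and grey lines joining them. Orange lies left of blue except in 2 CG regions of chromosome 3, and the mitochondrial regions start from Col-0 levels of 27.1% or less.

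Lists of genes that make, bind or silence 5S rRNA were set beside the arrays. Of 8 genes for transcribing 5S rRNA 2 had a listed region in the gene or promoter, and of 13 for silencing the arrays 2 had one. Of 6 genes for ribosomal proteins of the families that bind 5S rRNA (RPL5 and RPL11) none had one. Of all protein-coding genes 22.0% had one. With so few genes, the counts are not read as a result about the lists. NRPC2 (AT5G45140), the second-largest subunit of RNA polymerase III, had promoter CHH levels of 8.51% and 3.596% and of 8.53% and 2.81%, and a promoter CG level that was higher in rbp-ko-1 (35.7% and 71.2%). AT2G45100, annotated as a Brf1-like protein, had 15.5% and 1.54% in CG. NRPD1, which carries the active site of polymerase IV, had CG levels of 72.9% and 47.0% in one region and 52.1% and 80.6% in another. RDR2, which copies polymerase IV transcripts, had 77.5% and 62.0% and 68.3% and 86.8%. TFIIIA, DDM1, MET1, MOM1 and HDA6, which transcribe or silence the arrays, had no listed region.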

How the data were processed

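Whole-genome bisulfite sequencing was done on 3 Col-0 and 3 rbp-ko-1 libraries. The tools MethylDackel, Bismark, FastQC and Trimmomatic and the build TAIR10 are named, per the submitters' processing notes. For the program that called the regions, its thresholds and reads that match several places, details were not given in the sources used here. One table of 18828 entries was deposited by the authors, 1 per region and annotated feature, in which the methylation level is a fraction, 1 mean per genotype, the area statistic is a score, and the number of cytosines is a count. It holds no values per library and no depth, so no test was run, no value carries an SD, and how precise a level is cannot be given.

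Entries with 5S ribosomal RNA in the gene name or description (1300) were reduced to 1 record per chromosome, start, end and context. Levels were turned into percent and the difference was computed as rbp-ko-1 minus Col-0 in percentage points, which matched the deposited differences within 1e-13 points. Nuclear regions within 30 kb of each other were joined into stretches. Regions counted as near a centromere lay within 3 Mb of 15, 3.6, 14, 4.0 and 12 Mb on chromosomes 1 to 5. Regions at transfer RNA and 45S rRNA genes were set beside the members. The helper functions were checked on simulated data. Python 3.11.15, pandas 2.3.3, numpy 2.4.6, scipy 1.17.1 and matplotlib 3.10.9 were used.

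The members, gene lists, 30 kb join, the limit of 10% for nearly lost methylation and the limit of 5 cytosines per 100 bp were chosen with earlier results of these data known, the last 3 after the members' values were seen. By the naming rule, for each chromosome and context the regions with the largest and smallest absolute difference, the longest region and every region higher in rbp-ko-1 are named, as are the 5S rRNA gene with the most regions and each listed gene with a region; other regions named to describe a stretch were chosen after their values were seen.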

Additional observations from a re-analysis of the deposited data

How the results depend on the processing

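The planned removal of single replicates could not be run, since the table has no values per library. No paired analysis was possible because each genotype has only 1 mean per region. A value is given here where it moved by over 1.5 times. With at least 10 points of difference, 25 CHH regions were lower and 0 higher (median difference -12.1 points), 5 CG regions lower and 1 higher (-21.9), and the CHG median was -18.3. With at least 10 cytosines, 5 CG regions were lower and 1 higher. With regions annotated to the gene itself, 148 CHH regions were lower and 0 higher, 4 CG regions lower (median -4.96 points) and 4 CHG regions lower (-22.2). The 50% with the larger area statistic held by construction fewer regions, 114 lower and 0 higher in CHH, 5 and 0 in CG, and 5 lower in CHG. Without RRN5, an alternative chosen after seeing the data, 5 CG regions were lower (median -19.1 points) and the CHG median was -18.3; the main medians, with RRN5, were -11.7 in CG and -11.8 in CHG. No median changed sign under any alternative, and the CHH medians per chromosome moved by less than 1.5 times, also without the 2 regions under 5 cytosines per 100 bp. The CG and CHG values rest on 10 and 9 regions, and the depth behind each level is unknown.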
